A study of Homo sapiens with 40 samples.

Results

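The 9 genes followed here control passage through G1 of the cell cycle, and were sought in data from BEAS-2B cells, an immortalised line derived from human bronchial epithelium. They were MYC, the D-type cyclin genes CCND1, CCND2 and CCND3, the E-type cyclin genes CCNE1 and CCNE2, CDC25A, CDKN1B and E2F1. All were chosen by name, with earlier results of these data known. Of the 9, 8 had a row among the 15788 rows of the table, and CCND2 was not analysed here. All 8 passed the filter of a mean of at least 1 over the libraries, as did 12591 genes in all. Poly(A) RNA was sequenced in 40 libraries, 4 for each of 10 groups. Every group was grown until confluent, kept in medium lacking serum overnight and then treated for 2 h. The vehicle group received no drug. A second group received 1 µM RNO (roflumilast N-oxide, the active metabolite of roflumilast), an inhibitor of the cAMP-degrading enzyme PDE4. ONO-treated groups received 0.1 nM, 1 nM or 1 µM ONO-AE1-329 (ONO below), an agonist of the prostaglandin receptor EP4, and 1 group received 100 nM vilanterol, an agonist of the β2-adrenoceptor. The remaining 4 groups combined each of these 4 agonist treatments with 1 µM RNO. All libraries come from 1 cell line, and nothing in the labels says whether the replicates were separate cultures, so the p-values measure only the spread between these libraries.

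In G1, growth signals raise MYC, a transcription factor that drives genes of growth and cell-cycle entry, and the D-type cyclins, which activate the kinases CDK4 and CDK6. These kinases begin to phosphorylate the retinoblastoma protein, which frees E2F factors such as E2F1, and E2F factors then switch on E-type cyclins, CDC25A and other genes of S phase. CDC25A is a phosphatase that removes inhibitory phosphates from CDK2, whereas CDKN1B encodes p27, an inhibitor that binds and blocks cyclin-CDK complexes. The agonists used here act through receptors coupled to Gs, which raise cAMP.

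The table lists a normalised signal that the authors named TPM (a level scaled for transcript length and library total). Library totals ran from 956888 to 1091466 and pass what TPM can sum to. In these results TPM therefore means this signal and not TPM proper. The numbers of reads were not used here, so the depth behind each value is unknown. Vehicle replicate 3 stood apart: its residuals over all tested genes had an SD of 0.209 on the log2 scale, against 0.099 to 0.147 in the 36 treated libraries. Of 10 airway epithelial markers, 7 had a row and 5 had a mean of at least 1 (KRT7, KRT8, KRT17, KRT18 and ITGB4), whereas EPCAM and CDH1 were under 1; KRT5, KRT19 and TP63 were not analysed here. Their sum ran from 869 to 2244 TPM per library and moved with treatment: it was 1131 ± 76.7 TPM (SD, n = 4) in vehicle, 979 to 1244 TPM in the means of RNO and of the groups with 0.1 or 1 nM ONO, 1565 ± 160 with 1 µM ONO, 1867 ± 96.3 with 1 µM ONO plus RNO, 1970 ± 191 with vilanterol and 1873 ± 136 with vilanterol plus RNO. In the fibroblast list 4 of 7 markers had a row, and their group means summed to 490 to 547 TPM. COL1A1, at a mean of 495 TPM, made up nearly all of that sum. COL1A2 and COL3A1 had means of at least 1 but far lower than COL1A1, and PDGFRA was under 1. Of 6 leukocyte markers 2 had a row, LYZ (under 1) and CD68, and their group means summed to 12.6 to 14.2 TPM. None of 6 ciliated and secretory markers had a row. PECAM1, VWF and KDR, markers of endothelium, were all under 1 TPM. The part of cell composition in the results was not tested, and in bulk RNA fewer cells of a type and less RNA per cell cannot be told apart.

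In a first fit, which ignored the replicate number, 3 of the 8 genes were called across the 9 comparisons with vehicle. MYC and CDC25A rose in 4 comparisons each, and CCND1 fell in 4. That made 12 calls among 72 tests, at an adjusted p under 0.05 by limma with Benjamini-Hochberg adjustment over all 12591 genes. CCND3, CCNE1, CCNE2, CDKN1B and E2F1 were not called in any of the 9 in this fit. A fit with the number is given below, and it called CCNE1, CCNE2 and CDKN1B as well. With vilanterol 3 of the 8 genes were called, where 17.7% of all tested genes were called. With vilanterol plus RNO the count was again 3, against 18.4% of all genes. For 1 µM ONO 2 of 8 were called, against 7.21% of all genes, and with 1 µM ONO plus RNO 3 of 8, against 15.8%. With 1 nM ONO plus RNO 1 of 8 was called, against 3.45%. No gene of the 8 was called with RNO alone (0.238% of all genes), 0.1 nM ONO (0%), 1 nM ONO (1.01%) or 0.1 nM ONO plus RNO (1.12%). In those 4 comparisons 1, 0, 1 and 1 of the 8 had an unadjusted p under 0.05, against 12.3%, 5.85%, 13.4% and 11.2% of all genes (736 genes with 0.1 nM ONO).

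Complete separation from vehicle, with no overlap between the 4 libraries of each group, was counted too. It was found for 1 of the 8 genes with RNO (3.21% of all genes), 0 with 0.1 nM ONO (1.37%), 0 with 1 nM ONO (4.22%), 2 with 1 µM ONO (8.38%) and 2 with vilanterol (14.9%). Among the combinations it was found for 1 with 0.1 nM ONO plus RNO (3.96%), 1 with 1 nM ONO plus RNO (5.92%), 4 with 1 µM ONO plus RNO (14.2%) and 2 with vilanterol plus RNO (14.8%).

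**Figure D1:**
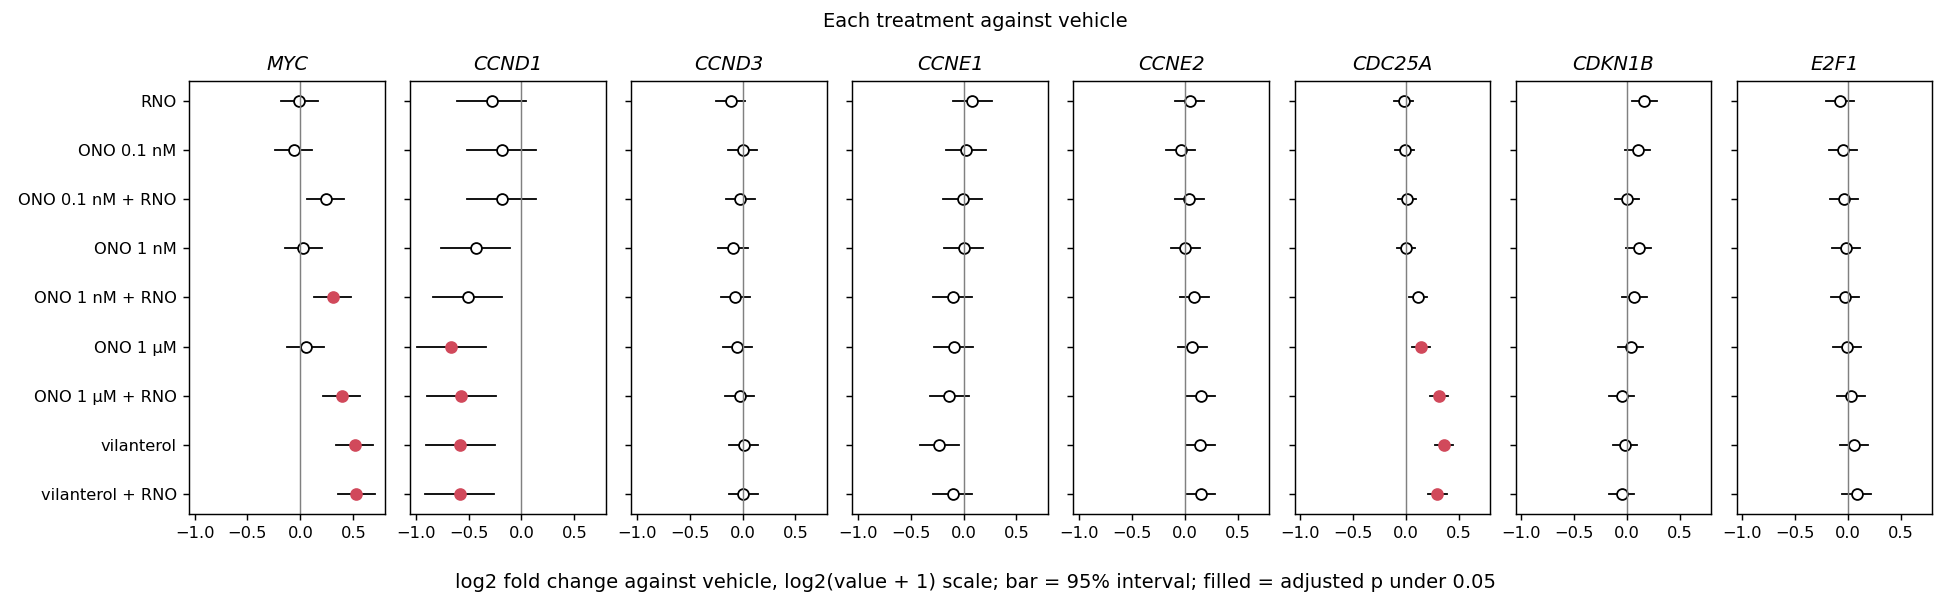
Log2 fold change of each gene (panels) for each treatment (rows) against vehicle, on the log2(value + 1) scale, with bars for the 95% interval and filled points for an adjusted p under 0.05. The fit is the one without the replicate number. Filled points lie to the right for MYC and CDC25A and to the left for CCND1, and the other 5 genes have none.

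Libraries with the same replicate number deviated from their group means together in all but 1 of these 9 comparisons (1 nM ONO plus RNO against vehicle), so a fit with the number as a block was set beside the first. It kept all 12 calls and added others, for a total of 23 of 72 (14 higher and 9 lower). The share of all genes called rose as well: to 5.11% with RNO, 0.0794% with 0.1 nM ONO, 8.47% with 1 nM ONO, 16.6% with 1 µM ONO, 31.2% with vilanterol, 5.12% with 0.1 nM ONO plus RNO, 29.7% with 1 µM ONO plus RNO and 32% with vilanterol plus RNO. The members called in the blocked fit numbered 2, 0, 1, 2, 5, 2, 4 and 4 in the same order. For 1 nM ONO plus RNO the blocked fit called 10% of all genes. Against vehicle the blocked fit called CCND1 lower in 8 comparisons, CCNE2 higher in 3, CCNE1 lower in 1 and CDKN1B higher in 1. CCND3 and E2F1 were not called in either fit.

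MYC stood at 51.1, 52.4, 49.3 and 46.7 TPM in the vehicle libraries, numbered 1 to 4. Vilanterol gave 85.6, 75.4, 61.9 and 65.6 TPM, and vilanterol plus RNO 82.2, 72.8, 65.0 and 70.2 TPM. Every library of both vilanterol groups was above every vehicle library. The sum of the epithelial markers was also highest in these 2 groups and in 1 µM ONO plus RNO, and its part in this result and in those of CDC25A and CCND1 was not tested. The fold change on the log2 scale was 0.51 (SE 0.0859; 1.45 times the vehicle mean; adjusted p = 2.45e-05, limma) with vilanterol and 0.53 (1.46 times; adjusted p = 1.55e-05) with vilanterol plus RNO.

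For ONO the rise of MYC was called only where RNO was present, at 1 nM and at 1 µM. With 1 µM ONO plus RNO the libraries held 70.7, 70.5, 57.9 and 64.3 TPM, all above vehicle, for a log2 fold change of 0.39 (1.32 times; adjusted p = 0.00112, limma). With 1 nM ONO plus RNO they held 61.9, 65.4, 59.7 and 60.8 TPM, for a log2 fold change of 0.31 (adjusted p = 0.0338). That call was lost without vehicle replicate 3 or 4 (adjusted p = 0.0789 and 0.112) and without replicate 1, 2, 3 or 4 of the treated group (0.0633, 0.115, 0.0554 and 0.0679). With 0.1 nM ONO plus RNO all 4 libraries, at 60.3, 59.8, 59.8 and 56.1 TPM, were likewise above vehicle. The log2 fold change there was 0.24, not called without the block (adjusted p = 0.247) and called with it (adjusted p = 0.0226). Without RNO, MYC stood at 47.7 ± 1.88 TPM with 0.1 nM ONO, 51.0 ± 6.07 with 1 nM and 52.0 ± 6.11 with 1 µM (SD, n = 4), each overlapping vehicle at 49.9 ± 2.48. The log2 fold change with 1 µM ONO alone was 0.05 (95% interval -0.12 to 0.23; adjusted p = 0.803). RNO alone gave 49.6 ± 3.52 TPM, a log2 fold change of -0.01 (95% interval -0.18 to 0.16; adjusted p = 0.972). In order of their means the groups ran from 0.1 nM ONO through RNO, vehicle, 1 nM ONO, 1 µM ONO, the 3 ONO plus RNO groups by concentration, and vilanterol to vilanterol plus RNO, and no neighbours in that order were clear of each other.

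**Figure D2:**
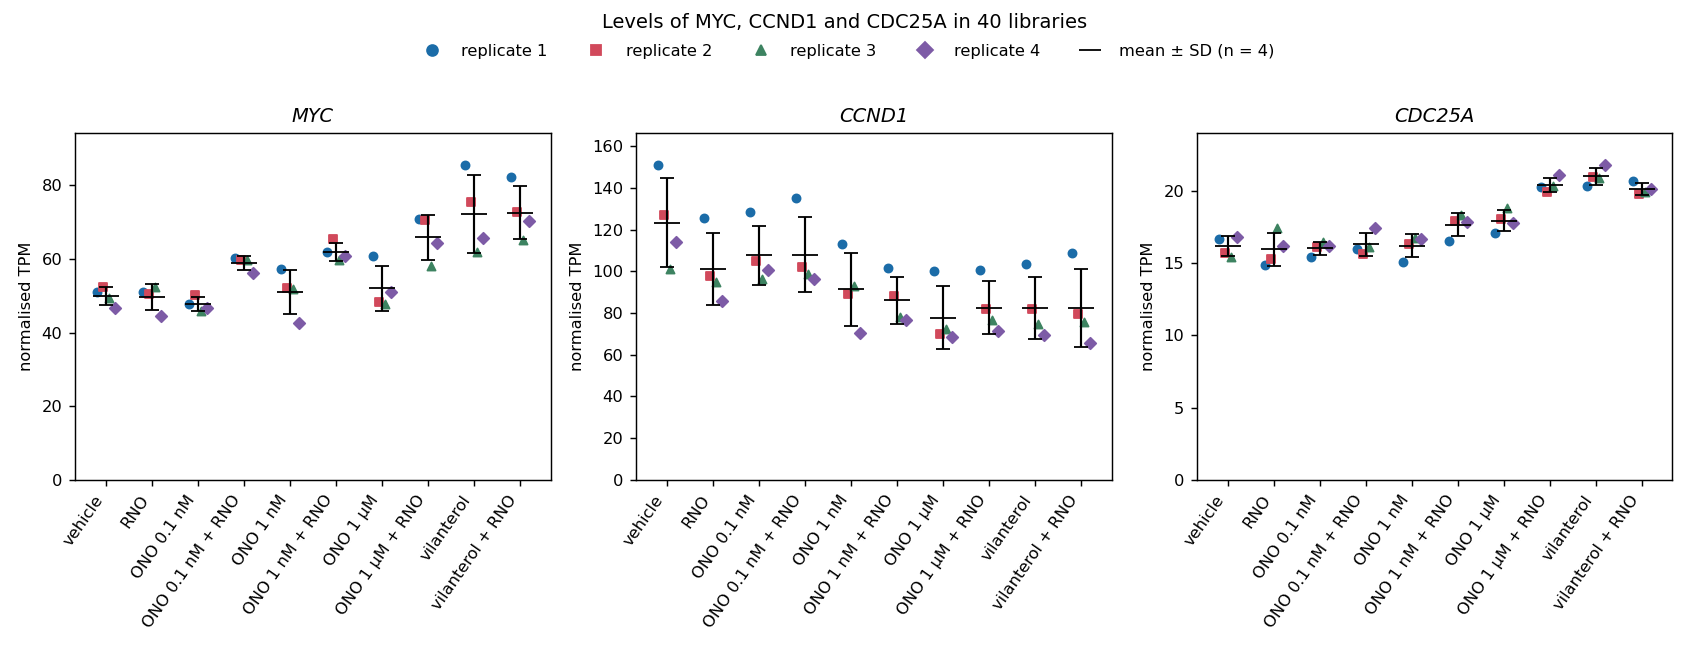
Normalised TPM of MYC, CCND1 and CDC25A in the 10 groups, 4 libraries each, with coloured points for libraries by replicate number and black marks for the mean ± SD. MYC and CDC25A are highest in the vilanterol groups and 1 µM ONO plus RNO, and the number 1 library is the highest for CCND1 in every group.

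Of the D-type cyclin genes, CCND1 was called lower with 1 µM ONO and with vilanterol, used at 100 nM only, whether or not RNO was present. CCND3 was not called in any comparison. CCND1 in the vehicle libraries was 151, 127, 101 and 114 TPM. Under 1 µM ONO it was 100.2, 70.0, 72.3 and 68.3 TPM, below every vehicle library, for a log2 fold change of -0.66 (SE 0.16; 0.63 times vehicle; adjusted p = 0.00591, limma). With 1 µM ONO plus RNO the libraries held 100.6, 81.7, 76.5 and 71.4 TPM, also all below vehicle, for a log2 fold change of -0.57 (adjusted p = 0.0117). Vilanterol gave 104, 81.9, 74.6 and 69.5 TPM, and vilanterol plus RNO 109, 79.6, 75.6 and 65.7 TPM. In these last groups 3 of 4 libraries were below all of vehicle, and the log2 fold changes were -0.58 in both (adjusted p = 0.00936 and 0.00805). With only the groups compared in the fit, the second of these had an adjusted p of 0.0506.

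CCND1 differed between replicate numbers more than any of the other 7 genes, and 90.3% of its variation within groups lay between the numbers. The number 1 library was the highest in 10 of 10 groups, and the mean over groups was 117 TPM for number 1, 92.3 for number 2, 86.1 for number 3 and 81.9 for number 4. What the numbers mark is not given in the labels. Set against the vehicle library of its own number, CCND1 was lower in 4 of 4 pairs in every one of the 9 comparisons, with a ratio of 0.552 to 0.715 for 1 µM ONO and 0.61 to 0.738 for vilanterol. All 9 use the same 4 vehicle libraries, so their common direction is not independent. With the block, the weaker treatments were called too. For RNO alone (101 ± 17.2 TPM) the log2 fold change was -0.28, with an adjusted p of 0.462 without the block and 0.00183 with it. For 1 nM ONO (91.4 ± 17.6 TPM) it was -0.43, with 0.233 and 1.38e-06. For 0.1 nM ONO plus RNO (108 ± 18.2 TPM) it was -0.19, with 0.686 and 0.0331. For 0.1 nM ONO alone, also -0.19, neither fit made a call (0.834 and 0.149). With 1 nM ONO plus RNO (86.1 ± 11.4 TPM) it was -0.51, with an adjusted p of 0.0753 without the block and 1.5e-08 with it (limma). In that comparison not every same-number pair of libraries deviated from its group means together. Without the block the value was 0.0466 without vehicle replicate 3, or 0.0477 without replicate 1 of the treated group. No neighbours in the order of the 10 group means, from 77.7 TPM with 1 µM ONO to 123 TPM with vehicle, were clear of each other.

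CCND3, the other D-type cyclin gene with a row, lay between 35.1 and 45.8 TPM in all 40 libraries, with group means of 38.5 to 42.1 TPM. Its log2 fold changes against vehicle ran from -0.11 (RNO) to 0.01 (vilanterol), with adjusted p-values of 0.501 or more (limma). CCND1 transcripts made up 74.4% ± 4.46 (SD, n = 4) of the CCND1 and CCND3 sum in vehicle, 65.5% ± 5.11 with 1 µM ONO and 65.8% ± 5.35 with vilanterol, on the TPM scale. The sum itself was 165 ± 18.9 TPM in vehicle and 118 ± 13.4 TPM with 1 µM ONO. CCND1 thus remained the more abundant of the 2 in every group.

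CDC25A, the phosphatase that activates CDK2, varied mostly between groups: 89.4% of its variation over the 40 libraries lay between groups, against 79.3% for MYC and 50.5% for CCND1. Vehicle held 16.7, 15.7, 15.5 and 16.8 TPM. Vilanterol gave 20.4, 21.0, 20.9 and 21.8 TPM, all above vehicle, for a log2 fold change of 0.36 (SE 0.0422; 1.3 times; adjusted p = 3.62e-08, limma). Vilanterol plus RNO gave 20.7, 19.8, 19.9 and 20.1 TPM (log2 fold change 0.30; adjusted p = 1.19e-06). For 1 µM ONO plus RNO the values were 20.3, 19.9, 20.3 and 21.1 TPM (log2 fold change 0.32; adjusted p = 5.01e-07). These 3 groups lay within 19.8 to 21.8 TPM and were clear of the other 7, whose highest library held 18.9 TPM. With 1 µM ONO alone the libraries held 17.1, 18.1, 18.9 and 17.8 TPM, all above vehicle, for a smaller rise of 0.14 (adjusted p = 0.0318). That smaller rise was not called without vehicle replicate 2 or 3 (adjusted p = 0.0733 and 0.126), without ONO replicate 2, 3 or 4 (0.0768, 0.136 and 0.0549), with equal library totals (0.0552) or with only the groups compared in the fit (0.315). RNO, 0.1 nM ONO, 1 nM ONO and 0.1 nM ONO plus RNO had means of 16.0 to 16.3 TPM, next to 16.2 ± 0.694 in vehicle. For 1 nM ONO plus RNO (17.7 ± 0.785 TPM) the log2 fold change was 0.12. Its adjusted p was 0.125 without the block and 0.0249 with it (limma), in a comparison where not every same-number pair deviated together.

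CDC25A and E2F1 are textbook targets of E2F factors, and their upstream sequences are shown because they share 1 E2F motif. CDC25A rose in 4 comparisons and E2F1 was called in none of them without or with the block; the difference between the genes was not tested. The 250 bases before the annotated start, 5′ to 3′ on the gene's strand, come from RefSeq (GRCh38.p14; the submitters' processing notes name GRCh37 and hg19, so these positions do not apply to their files). CDC25A is on the minus strand at chr3:48188418-48188667 and E2F1 on the minus strand at chr20:33686386-33686635. Capitals mark the E2F motif TTTGGCGC and, in E2F1, the letters CGTCA, the reverse strand of the core TGACG of a cAMP response element.
CDC25A: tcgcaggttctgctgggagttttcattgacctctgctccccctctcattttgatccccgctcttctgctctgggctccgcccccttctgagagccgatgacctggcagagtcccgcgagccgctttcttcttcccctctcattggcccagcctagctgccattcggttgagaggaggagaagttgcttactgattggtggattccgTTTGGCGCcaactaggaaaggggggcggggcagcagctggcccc
E2F1: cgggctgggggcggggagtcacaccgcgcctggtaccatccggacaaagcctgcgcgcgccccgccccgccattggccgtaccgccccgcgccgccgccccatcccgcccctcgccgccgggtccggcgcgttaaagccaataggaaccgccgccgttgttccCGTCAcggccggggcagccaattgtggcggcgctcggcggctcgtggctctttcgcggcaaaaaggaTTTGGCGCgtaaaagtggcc

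In these sequences the E2F motif began at position -44 in CDC25A and -20 in E2F1, counted back from the base before the start. Promoter windows of 300 bases (250 before the start and 50 after) were matched for 5 of the 9 genes: CCND3 (with several starts), CCNE1, CDC25A, CDKN1B and E2F1. Both strands were searched. TTTGGCGC occurred in 0.652% of the 35116 promoter windows in the RefSeq set, and any of 3 E2F motifs (TTTCGCGC, TTTGGCGC and TTTCCCGC) in 2.74%. None of these 3 motifs was found in the windows of CCND3, CCNE1 or CDKN1B. The full cAMP response element TGACGTCA, present in 1.85% of windows, was found in none of the 5 genes' windows. Its core TGACG, which the full element contains and which 24.6% of windows hold, was found in E2F1 (position -87) and in CDKN1B (position 7), and not in CDC25A. The E-box CACGTG, the motif bound by MYC with MAX, was in 7.26% of all windows and in none of these. These are matches of letters within 1 window.

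E2F1 itself was not called in any comparison without the block or with it in all 40 libraries. Its libraries lay between 69.1 and 93.5 TPM, with group means from 74.9 TPM (RNO) to 83.6 TPM (vilanterol plus RNO), beside 78.8 TPM in vehicle. Vehicle held 71.1, 79.4, 86.4 and 78.3 TPM, and vilanterol plus RNO 78.2, 84.2, 78.5 and 93.5 TPM, so the groups overlapped. The log2 fold change between those groups was 0.08 (95% interval -0.05 to 0.22; adjusted p = 0.413, limma), and it was the highest of the 9 for E2F1. With the block and without vehicle replicate 3, the library that stood apart, E2F1 was called higher with vilanterol (log2 fold change 0.11, against 0.06 with all libraries; adjusted p = 0.0102) and with vilanterol plus RNO (0.14; adjusted p = 0.00153). The number 1 library was the lowest in 10 of 10 groups.

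The E-type cyclin genes, whose products activate CDK2 at the end of G1, were not called against vehicle in the first fit. Both were called in the blocked fit, and CCNE2 was the more abundant. CCNE1 held 3.88, 3.62, 4.19 and 4.91 TPM in vehicle and 2.98, 2.74, 4.10 and 3.82 TPM with vilanterol, with overlap. Its log2 fold change there was -0.23, with an adjusted p of 0.0782 without the block and 0.0314 with it, and CCNE1 was lower in 4 of 4 same-number pairs. Leaving out vehicle replicate 2 or vilanterol replicate 3 or 4 also brought the adjusted p under the threshold (0.037, 0.0242 and 0.0496). With vilanterol plus RNO (3.79 TPM) the log2 fold change was -0.10 (adjusted p = 0.471).

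CCNE2 held 40.9, 40.1, 45.1 and 44.9 TPM in vehicle, and 42.4, 48.3, 49.7 and 49.3 TPM with vilanterol. With 1 µM ONO plus RNO it held 45.4, 46.0, 49.1 and 49.7 TPM, all above vehicle. With vilanterol plus RNO it held 44.4, 46.5, 49.0 and 50.7 TPM. All 3 groups were higher than vehicle in 4 of 4 same-number pairs. The log2 fold change was 0.15 in each of the 3, with adjusted p-values of 0.135 (vilanterol), 0.125 (1 µM ONO plus RNO) and 0.109 (vilanterol plus RNO) without the block and 0.00111, 0.000843 and 0.000584 with it (limma). The vilanterol value also fell to 0.0479 without vilanterol replicate 1, and that of vilanterol plus RNO to 0.0318 with equal library totals. CCNE1 made up 8.83% ± 0.70 (SD, n = 4) of the CCNE1 and CCNE2 sum in vehicle and 6.68% ± 0.985 with vilanterol, on the TPM scale, with libraries at 8.29% to 9.85% and 5.36% to 7.62%.

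CDKN1B, which encodes the CDK inhibitor p27, was highest with RNO alone. The RNO libraries held 89.4, 80.3, 83.0 and 86.6 TPM and the vehicle libraries 77.9, 65.9, 79.9 and 78.9 TPM. All 4 RNO libraries were above all 4 vehicle libraries. The log2 fold change was 0.17 (95% interval 0.05 to 0.28), with an adjusted p of 0.26 without the block and 0.00977 with it (limma). The 8 other treatments gave log2 fold changes from -0.05 (vilanterol plus RNO, 72.9 TPM) to 0.11 (1 nM ONO, 81.9 TPM), none called in either fit. With the block and without vehicle replicate 3, CDKN1B was also called higher with 1 nM ONO (0.14; adjusted p = 0.0263). The group means were thus within 72.9 to 84.8 TPM, and no neighbours in their order were clear of each other.

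**Figure D3:**
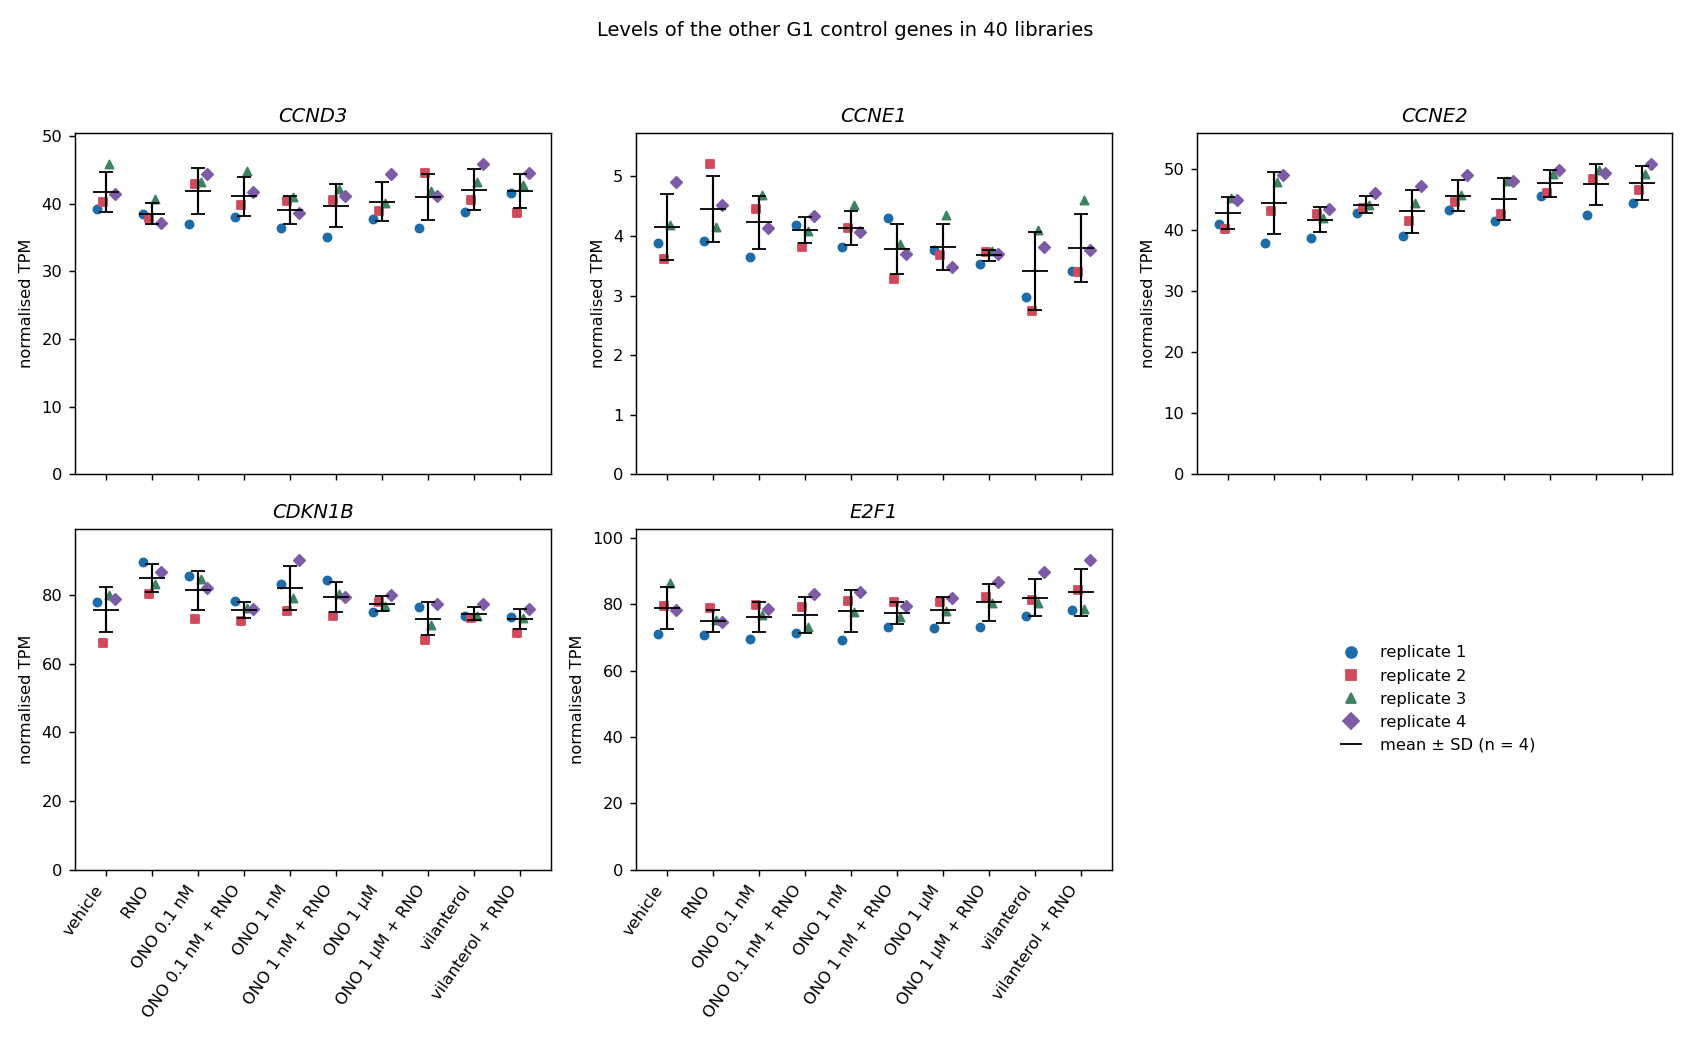
Normalised TPM of CCND3, CCNE1, CCNE2, CDKN1B and E2F1 in the 10 groups, with points for the 4 libraries by replicate number and black marks for the mean ± SD. The groups overlap with vehicle except CDKN1B with RNO and CCNE2 with 1 µM ONO plus RNO.

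Adding RNO to an agonist asked whether PDE4 inhibition changed the response. With the block, MYC was called at each ONO concentration, as given below. Without the block, CDC25A was the only gene called, and only at 1 µM ONO. It rose from 18.0 ± 0.724 to 20.4 ± 0.496 TPM (SD, n = 4), with no overlap between the groups. The log2 difference was 0.18 (1.14 times, adjusted p = 0.0365, limma). That made 1 of 8 genes, against 0.604% of all genes. Groups with and without RNO did not overlap for 1 of 8 genes at each ONO concentration, against 4.06%, 3.49% and 5.06% of all genes from 0.1 nM to 1 µM. These were MYC at the lower concentrations and CDC25A at 1 µM. The CDC25A call was lost without ONO replicate 1, 2 or 4 (adjusted p = 0.14, 0.112 and 0.118, limma). It was also lost without replicate 1, 2, 3 or 4 of ONO plus RNO (0.0842, 0.0599, 0.0892 and 0.14). With only the 1 µM groups in the fit it was lost too (0.16). MYC was higher with RNO in 4 of 4 same-number pairs at each ONO concentration. The log2 differences for MYC were 0.30 at 0.1 nM, 0.28 at 1 nM and 0.34 at 1 µM, with adjusted p-values of 0.129, 0.339 and 0.0593 without the block and 0.00389, 0.0148 and 0.00104 with it. Without ONO replicate 1 the value at 1 µM was 0.0102, without replicate 3 of ONO plus RNO 0.0266, and with equal library totals 0.0494. At 0.1 nM, with only those groups in the fit, it was 0.00985. No gene of the 8 was called without the block at 0.1 nM (0.723% of all genes) or 1 nM (0.238%), where 1 and 2 had an unadjusted p under 0.05, against 5.49% and 4.41% of all genes. In the blocked fit 1, 1 and 2 genes were called at 0.1 nM, 1 nM and 1 µM, against 2.58%, 1.2% and 3.69% of all genes.

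For vilanterol, RNO made no measured difference that was called in these genes: 0 of 8 by limma, against 0% of all genes, with 0 of 8 and 180 of all genes at an unadjusted p under 0.05. The MYC difference was 0.01 (95% interval -0.16 to 0.19) and that of CDC25A -0.06 (95% interval -0.14 to 0.03). For CCND1 it was -0.01 (95% interval -0.33 to 0.32). None of the 8 separated completely, against 1.05% of all genes.

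**Figure D4:**
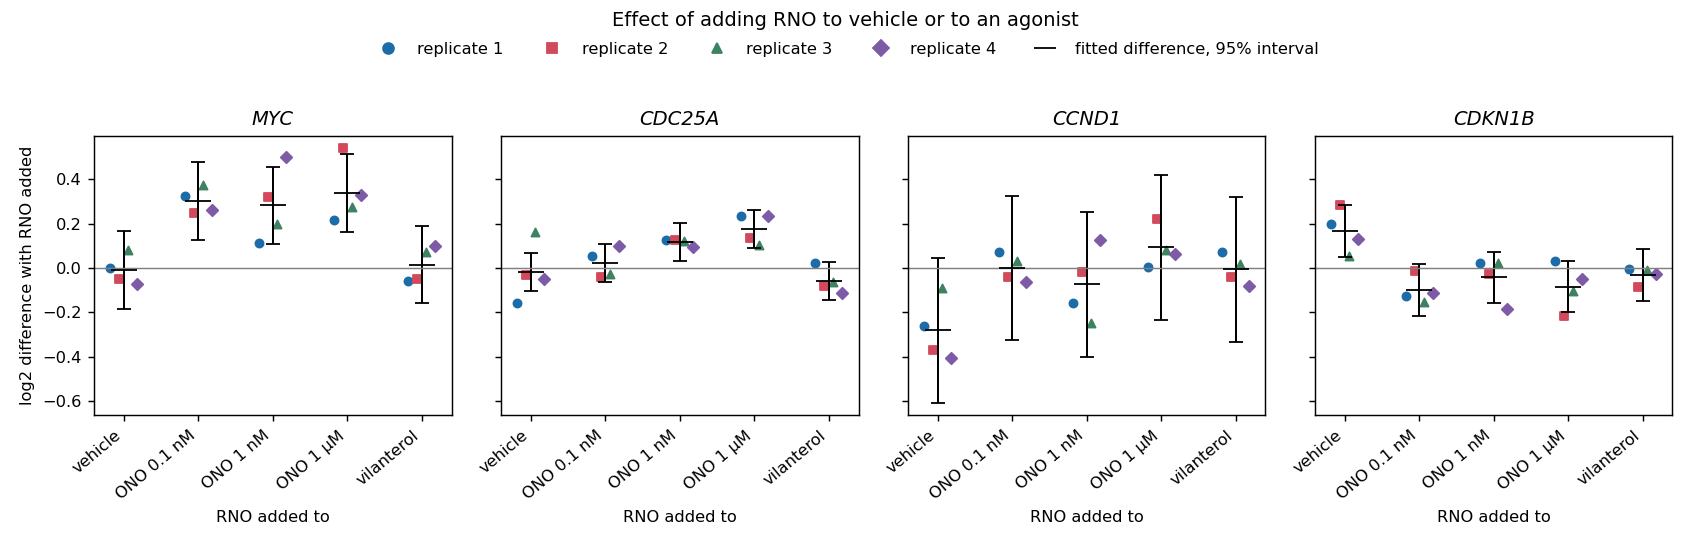
Log2 difference made by RNO when added to vehicle, to each ONO concentration or to vilanterol, for MYC, CDC25A, CCND1 and CDKN1B, with coloured points for same-number pairs and black marks for the fitted difference with its 95% interval. The MYC points lie above 0 at the 3 ONO concentrations and spread around 0 for vehicle and vilanterol.

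Whether RNO did more on top of an agonist than on vehicle was tested as an interaction. None of the 8 genes was called in any of the 4 interactions by limma without the block, where 0.135% of all genes were called for 0.1 nM ONO, 0% for 1 nM, 0.0635% for 1 µM and 0.00794% for vilanterol. At an unadjusted p under 0.05 there were 2, 3, 3 and 1 of the 8 genes, against 6.93%, 8.80%, 7.92% and 5.77% of all genes (1108 genes for 1 nM). For MYC the interaction was 0.31 at 0.1 nM ONO (95% interval 0.06 to 0.56; adjusted p = 0.576), 0.29 at 1 nM (0.528) and 0.35 at 1 µM (0.328), and 0.02 with vilanterol (0.984). CDKN1B had interactions of -0.27 at 0.1 nM ONO, -0.21 at 1 nM, -0.25 at 1 µM and -0.20 with vilanterol. All 4 subtract the same difference of 0.17 between RNO and vehicle, so their common sign is not independent; RNO added to vilanterol itself gave -0.03. At 0.1 nM ONO, where the numbers pair the libraries, the block gave an adjusted p of 0.00407 for CDKN1B (0.294 without it, limma). For CCND1, whose interaction was 0.28, it gave 0.0363 (0.814 without it). Thus 2 of 8 genes were called against 2.57% of all genes. The CCND1 interactions also share 1 term, the difference of -0.28 between RNO and vehicle. RNO added to 0.1 nM ONO itself changed CCND1 by 0.000261 on the log2 scale. In the other interactions the block called 1 of 8 genes for 1 nM ONO (1.69% of all genes), 4 for 1 µM (3.76%) and 0 for vilanterol (0.246%). The 4 were CCND1 (0.37, adjusted p = 0.00316, limma), CDKN1B (-0.25, 0.00532), CDC25A (0.20, 0.0207) and MYC (0.35, 0.0229). In these interactions not every same-number pair of libraries deviated from its group means together.

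The CDKN1B levels behind the interaction at 0.1 nM ONO were 75.6 TPM in vehicle and 84.8 with RNO, and 81.3 with 0.1 nM ONO and 75.6 with both. Those of CCND1 were 123 TPM in vehicle, 101 with RNO, 108 with 0.1 nM ONO and 108 with both.

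The ONO concentration series gave no called step between neighbouring concentrations by limma without the block. From 0.1 to 1 nM 0.318% of all genes and from 1 nM to 1 µM 2.11% were called, and 0 and 1 of the 8 genes had an unadjusted p under 0.05, against 3.28% and 8.35% of all genes. CCND1 means were 108, 91.4 and 77.7 TPM at 0.1 nM, 1 nM and 1 µM, with the higher concentration lower in 4 of 4 same-number pairs at each step. The log2 steps were -0.24 (adjusted p = 1; 0.00941 with the block) and -0.23 (0.909; 0.005 with the block). For CDC25A the means were 16.0, 16.2 and 18.0 TPM. All 4 libraries at 1 µM were above all at 1 nM (no overlap for 6.35% of all genes), and the second step was 0.14 (adjusted p = 0.0918; 0.0123 with the block). In the blocked fit 1 and 2 of the 8 genes were called, against 1.21% and 5.51% of all genes.

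**Figure D5:**
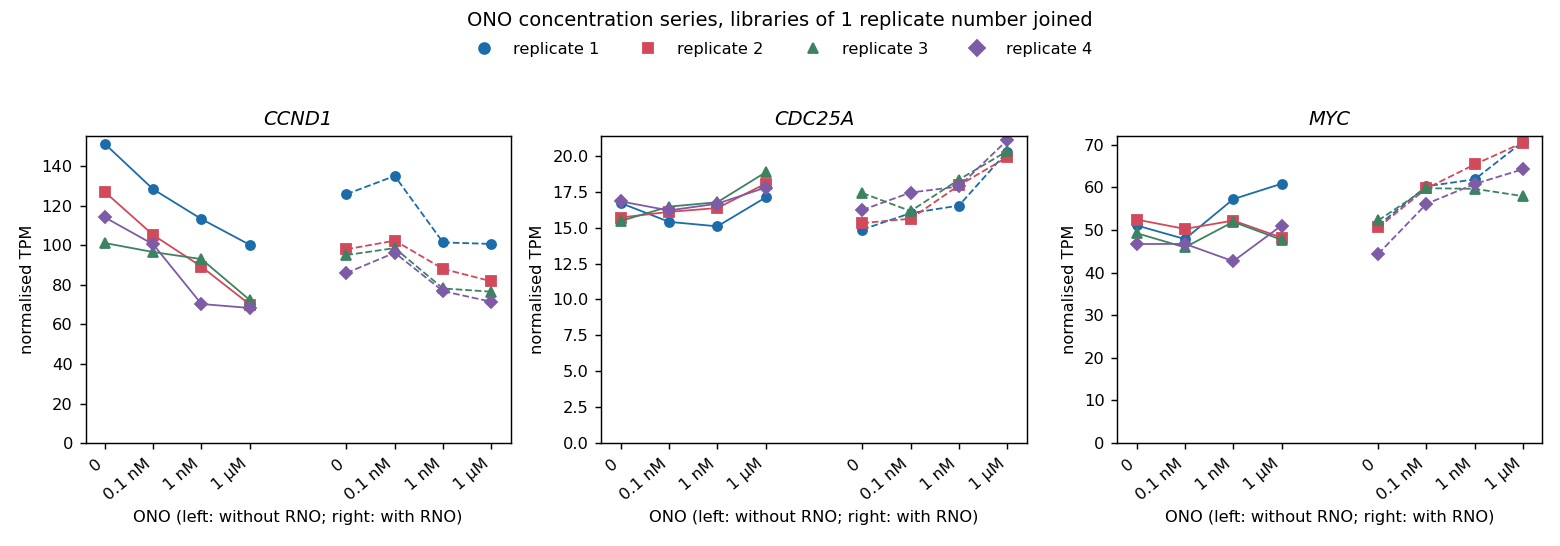
Normalised TPM of CCND1, CDC25A and MYC against ONO concentration without RNO (left, solid lines) and with RNO (right, dashed lines), with lines joining libraries of the same replicate number. The CCND1 lines are lower at 1 µM than at 0 in all 4 numbers without RNO, and the number 1 line lies highest throughout.

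ONO at 1 µM and vilanterol at 100 nM, 2 agonists of different receptors, differed in MYC and CDC25A and not detectably in CCND1. MYC was 52.0 ± 6.11 TPM with ONO and 72.1 ± 10.6 with vilanterol (SD, n = 4), without overlap, for a log2 difference of -0.46 (0.72 times; adjusted p = 0.00114, limma). With only these groups in the fit the adjusted p was 0.076. CDC25A was 18.0 ± 0.724 and 21.0 ± 0.604 TPM, also without overlap, for a difference of -0.22 (0.854 times; adjusted p = 0.00186). These were 2 of 8 genes, where 2.14% of all genes were called and 6.86% did not overlap. For CCND1, at 77.7 and 82.4 TPM, the difference was -0.09 with a 95% interval of -0.41 to 0.24 (adjusted p = 0.992), which leaves room for a difference either way. With RNO present in both groups 0 of 8 genes were called by limma, as were 0% of all genes, with 0 of 8 and 306 of all genes at an unadjusted p under 0.05. MYC then differed by -0.14 (95% interval -0.31 to 0.04) and CDC25A by 0.02 (95% interval -0.07 to 0.10).

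For scale, the levels of 2 genes known to respond to cAMP are given. NR4A3, which encodes a nuclear receptor, went from 1.35 ± 0.495 TPM in vehicle to 36.2 ± 3.94 with 1 µM ONO and 73.3 ± 6.05 with vilanterol. PDE4D, which encodes one of the enzymes that RNO inhibits, went from 2.18 ± 0.401 to 9.59 ± 0.594 and 15.1 ± 0.385 TPM.

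Other genes of the same control steps were counted in 7 lists, as a description, against 9.69% of all tested genes higher and 7.97% lower with vilanterol (17.7% called in all). Among 11 MYC, MAX and MXD network genes tested, of 13 listed, 5 rose and 1 fell with vilanterol, with a median log2 fold change of 0.12 against -0.01 over all genes. MYC is 1 of the 5. With vilanterol plus RNO, where 18.4% of all genes were called, 6 rose and 1 fell. MNT, a MAX partner that represses, rose from 16.4 ± 1.60 to 23.9 ± 1.15 TPM with vilanterol (log2 fold change 0.53; adjusted p = 2.37e-06). MLXIP, a partner of MLX, rose from 9.53 to 13.4 TPM with vilanterol plus RNO (0.46; adjusted p = 3.3e-07), and MAX from 21.8 to 25.5 TPM (0.22; adjusted p = 0.00313). MXD3, another repressor that pairs with MAX, fell from 27.9 to 20.1 TPM with vilanterol (-0.45; adjusted p = 0.000429).

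Of 20 MYC-regulated growth and ribosome biogenesis genes, 3 rose with vilanterol and 5 with vilanterol plus RNO, and none fell in these; the medians were 0.01 and 0.04. These 3 and 5 of 20 stand beside 17.7% and 18.4% of all genes called in either direction. With the block they became 6 and 8, beside 31.2% and 32%. ODC1, the first enzyme of polyamine synthesis, moved the most, from 127 ± 8.16 to 251 ± 22.3 TPM with vilanterol (log2 fold change 0.98; adjusted p = 1.71e-13), and was called in 5 of the 9 comparisons. NOP56 (102 to 115 TPM) and RRS1 (27.8 to 33.0 TPM), both of ribosome assembly, rose by 0.17 and 0.24 with vilanterol plus RNO. With RNO alone 1 of the 20 fell and none rose, and with the block 6 fell (5.11% of all genes called).

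Among 11 cyclins and partner kinases tested, 4 of them genes described above, 1 rose and 2 fell with vilanterol, with a median of -0.09 (2 and 4 with the block). These 3 of 11 stand beside 17.7% of all genes. CDK6, a kinase partner of the D-type cyclins, rose from 12.8 ± 2.47 to 18.4 ± 1.54 TPM with vilanterol plus RNO (log2 fold change 0.51; adjusted p = 2.86e-05). CDK7, of the CDK-activating kinase, fell from 33.3 to 28.2 TPM in that comparison (-0.22; adjusted p = 0.0285). Of 8 CDK inhibitors 1 rose and 1 fell with vilanterol, beside the same 17.7%. CDKN1A, which encodes p21, rose from 68.4 ± 5.79 to 104 ± 9.08 TPM (0.60; adjusted p = 9.22e-05), and CDKN3, a CDK phosphatase, fell from 135 to 112 TPM with vilanterol plus RNO (-0.26; adjusted p = 0.000308). CDKN1A was thus called where CDKN1B, its close relative, was not; the difference between the 2 was not tested.

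Of 13 genes of the CDC25, WEE1 and ubiquitin ligase group, 1 rose (CDC25A) and 3 fell with vilanterol, beside 17.7% of all genes called. WEE1, the kinase that adds the phosphates CDC25 enzymes remove, fell in 5 comparisons, from 22.0 ± 1.88 to 16.7 ± 0.932 TPM with 1 µM ONO plus RNO (log2 fold change -0.37; adjusted p = 4.14e-05). CDC25C, which acts at entry to mitosis, fell from 28.9 to 23.4 TPM with vilanterol plus RNO (-0.29; adjusted p = 5.4e-06), and CKS1B, a cofactor in p27 breakdown, from 303 to 268 TPM (-0.16; adjusted p = 0.0108).

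Among 15 RB and E2F family genes, 1 rose and 2 fell with vilanterol, with a median of -0.02 (2 and 4 with the block). These 3 of 15 were near the 17.7% of all genes. RBL2, the pocket protein p130 of resting cells, rose in 5 comparisons, from 28.1 to 32.1 TPM with 1 nM ONO (log2 fold change 0.19; adjusted p = 0.00217). E2F3 fell from 16.7 to 14.8 TPM with vilanterol (-0.17; adjusted p = 0.00231). LIN9 fell and LIN54 rose with vilanterol, with log2 fold changes of -0.23 and 0.17; both encode parts of the complex that RB-family proteins form with E2F. Of 18 E2F-regulated S-phase genes, 2 rose and none fell with vilanterol, a share no higher than that of all genes called (17.7%), with a median of -0.00477. RRM2, a subunit of ribonucleotide reductase, went from 206 to 234 TPM (0.18; adjusted p = 2.91e-07) and CDC6, a replication licensing factor, from 60.1 to 67.0 TPM (0.16; adjusted p = 0.000126), both with vilanterol plus RNO.

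The genes whose means over the 10 groups followed each of the changed members most closely were found by Pearson's r among all tested genes, as a description over 10 groups that share vehicle and treatments. For MYC these were LRRC8C (r = 0.98), EDN1 (0.977) and ARID4B (0.975), and EDN1, which encodes endothelin-1, went from 4.99 TPM in vehicle to 12.4 TPM with vilanterol plus RNO. For CCND1 they were ENC1 (0.989; 40.2 to 26.2 TPM), STAMBPL1 (0.981) and SH2D5 (0.978). For CDC25A they were ICOSLG/LOC102723996, TOB1 and FGF18 (each 0.988), and TOB1, of the BTG/TOB family, went from 35.6 to 109 TPM. Among the 8 genes themselves, r over the groups is given for every pair with CDC25A. It was 0.885 for MYC, 0.924 for CCNE2, 0.878 for E2F1 and 0.442 for CCND3. It was -0.914 for CCNE1, -0.753 for CCND1 and -0.731 for CDKN1B.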

How the data were processed

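The deposited table holds a normalised signal, named TPM by the authors, for gene symbols in 40 poly(A) RNA-seq libraries. Its totals differ between libraries and pass what TPM can sum to, so it was treated as a normalised signal and not as TPM proper or counts; read depth is unknown. The submitters' processing notes name bcl2fastq 2.18.0.12, kallisto and sleuth, with GRCh37 and hg19; how transcripts were combined into genes is not given in the sources used here. Values were analysed as log2(value + 1) with limma 3.58.1 in R 4.3.3: genes with a mean of at least 1 (12591), 1 mean per group, all 40 libraries sharing 1 estimate of the spread (30 residual degrees of freedom, trended prior), and Benjamini-Hochberg adjustment within each of 21 comparisons, called under 0.05. The added 1 shrinks fold changes of low genes such as CCNE1; ratios are of group means. The fit without the block was tested on simulated data with independent noise in each library. The blocked fit was not, and noise shared by same-number libraries was not simulated.

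The replicate number was added as a block. The numbers were taken to pair libraries where every same-number pair of the compared groups had correlated deviations (r over 0.1), as in 17 of 21 comparisons; the labels do not say what they mark. Over all groups 174 of 180 same-number pairs passed (median r 0.259; -0.0846 for other pairs).

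The 9 genes and the 7 lists were chosen with earlier results of these data known. A list gene is named if called in at least 2 of 9 comparisons with vehicle, at most the 4 lowest adjusted p-values per list; neighbours are the 3 highest r. Alternatives were a pseudocount of 0.1, no low-value filter, equal totals, the block (also without vehicle replicate 3), only the groups compared, each library left out and, added after seeing the data, median-ratio scaling.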

Additional observations from a re-analysis of the deposited data

Results flagged for a closer look

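Levels of the 8 genes in 10 groups gave 80 sets of 4 libraries, and in 5 of them 1 library lay far from the other 3 by Dixon's criterion (the gap to the nearest library as a share of the range), which chance alone gives in about 1 set in 20. CCND1 in replicate 1 was 135 TPM with 0.1 nM ONO plus RNO, where the other libraries held 96.2 to 102 TPM. CCND1 in replicate 1 was 100.2 TPM with 1 µM ONO, where the others held 68.3 to 72.3 TPM. MYC in replicate 4 was 56.1 TPM with 0.1 nM ONO plus RNO, below the others at 59.8 to 60.3 TPM. CDKN1B in vehicle replicate 2 was 65.9 TPM, below 77.9 to 79.9 TPM in the others. CDKN1B in vilanterol replicate 4 was 77.4 TPM, above 73.3 to 73.8 TPM in the others.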

How the results depend on the processing

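Of 168 results for the 8 genes in 21 comparisons, 15 were called, and 10 of these were kept under every alternative run. Of 2776 alternative values, 23 lost a call and 64 gained one, 53 of these under a fit with the block. No called result changed direction; 176 alternative values of 66 uncalled results, all within 0.0929 of 0 on the log2 scale in the first fit, changed sign without being called. With the replicate block the numbers of genes called against vehicle became 2 with RNO, 1 with 1 nM ONO, 5 with vilanterol, 2 with 0.1 nM ONO plus RNO and 3 with 1 nM ONO plus RNO (CCND1 and CDC25A added). With RNO added to 0.1 nM, 1 nM and 1 µM ONO they became 1, 1 and 2. For the interactions they became 2, 1 (CDKN1B) and 4 (MYC, CCND1, CDC25A and CDKN1B), and for the ONO steps 1 and 2. Not every same-number pair passed the pairing check for 1 nM ONO plus RNO and for the interactions at 1 nM, 1 µM and vilanterol, although all 40 libraries correlated best with their own number. With the block and vehicle replicate 3 left out, calls are given for the 8 genes, with calls among all 12591 genes in parentheses. Against vehicle they were 2 (252) with RNO, 2 (612) with 1 nM ONO, 6 (3377) with vilanterol and 2 (432) with 0.1 nM ONO plus RNO. Calls were 2 (1310) with 1 nM ONO plus RNO and 5 (3307) with vilanterol plus RNO. RNO added to ONO gave 1 (477), 2 (337) and 2 (839) from 0.1 nM to 1 µM. The interactions gave 2 (442), 2 (184), 4 (683) and, for vilanterol, 1 (36). The steps gave 1 (211) and 2 (919). The block changed no other count of the 8 genes by over 1.5 times.

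With equal totals 1 gene was called with 1 µM ONO (747 of all 12591 genes) and 2 with RNO added to it (99). With only the compared groups fitted the count was 1 with 1 µM ONO (359 of all genes) and 1 for 1 µM ONO against vilanterol (183). For RNO added to ONO it was 1 at 0.1 nM (47) and 0 at 1 µM (24). Leaving out 1 library gave 1 to 2 with 1 µM ONO (684 to 1142 of all genes) and 0 to 1 with 1 nM ONO plus RNO (321 to 513). For RNO added to 1 µM ONO it gave 0 to 1 (37 to 77). The cause of these moves was not tested. Pseudocount, low-value filter and median-ratio scaling moved no count by over 1.5 times.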

Other observations

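CCNE2 was lowest in the number 1 library in 9 of 10 groups, CCND3 in 8, and CDKN1B was lowest in the number 2 library in 9. The means over groups for CCNE2 were 41.6 TPM for number 1, 43.8 for number 2, 46.5 for number 3 and 47.7 for number 4. For CDKN1B the mean of number 2 was 72.8 TPM and those of the other numbers 77.8 to 80.4 TPM. By its mean over the 40 libraries, each gene was above a share of all tested genes: 90.9% for CCND1, 84.5% for MYC, 56.4% for CDC25A and 19.7% for CCNE1.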
